A study of Mus musculus with 101 samples.

Results

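The 9 genes described here, Serpina3a, Serpina3b, Serpina3c, Serpina3f, Serpina3g, Serpina3j, Serpina3k, Serpina3m and Serpina3n, are mouse members of clade A3 of the serpins. They were taken by name and Entrez ID from 24475 genes measured, and all 9 had a row in both count tables. Serpins are secreted or intracellular proteins that present a reactive loop as bait, and a protease that cuts the loop is trapped in a covalent complex. Humans have a single gene of this clade, SERPINA3 (alpha-1-antichymotrypsin), an acute-phase plasma protein that inhibits chymotrypsin-like proteases such as cathepsin G. In mice the locus expanded into a tandem array whose members differ in the loop. Serpina3n is the member most often described outside the liver, in fat, brain and wounds, and is known to inhibit granzyme B. Serpina3k (kallistatin-like) is made mainly by liver, and Serpina3g and Serpina3f belong to the serpins described in haematopoietic cells.

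The study asked how gain and loss of Inhbe change white fat. Inhbe encodes the subunit of activin E, a ligand of the TGF-beta family that liver secretes. Messenger RNA of 2 depots, subcutaneous and epididymal fat, was sequenced from males of the C57BL/6NTac strain, and the 101 libraries form 12 groups. In the gain-of-function experiment wild-type mice on chow received an adeno-associated virus (AAV) for expression in liver, carrying GFP or mouse Inhbe (mInhbe), with 10 libraries per vector and depot. For loss of function, wild-type (WT) mice and Inhbe KO mice, neither given a vector, ate chow or a high-fat diet (HFD). The subcutaneous libraries of that experiment numbered 8 for WT on chow, 7 for KO on chow, 7 for WT on HFD and 8 for KO on HFD, and its epididymal libraries 8, 7, 8 and 8. Each library stands for 1 sample numbered as a biological replicate. The labels do not say whether both depots came from the same animals, nor which part of Inhbe the KO removed.

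Levels are given in CPM, the count of a gene scaled to the library total. Library totals ran from 12970509 to 20170746 estimated counts, and 3 counts, the floor used here for a gene at 0, stood for 0.149 to 0.231 CPM in a library. Intervals on counts cover counting error only. Changes are log2 fold changes ± SE from edgeR's quasi-likelihood test, and genes count as called where the p adjusted by Benjamini and Hochberg's method over all genes tested was under 0.05. Inhbe itself had 0 counts in all 20 GFP libraries, 2.42 to 46.0 CPM in the mInhbe subcutaneous libraries and 0.24 to 15.8 CPM in the mInhbe epididymal ones. In the KO experiment it had 8 counts over all libraries, so fat does not check the genotype. Adipocyte markers were high in every group, with a sum of 17400 to 46600 CPM over 12 genes. Some libraries carried transcripts of other tissues (lymph node, liver, epididymis), and these values stand beside the results they touch. In such bulk tissue, fewer cells of a type and less RNA per cell cannot be told apart.

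The 9 genes lie on mouse chromosome 12 in 1 array, all on the plus strand except Serpina3c (GRCm38.p6, RefSeq annotation). Serpina3a opens the array (chr12:104112724-104121896), followed by Serpina3b (chr12:104127986-104139546), Serpina3c (chr12:104146907-104153929), Serpina3f (chr12:104214544-104221129) and Serpina3g (chr12:104236147-104241939). Serpina3j (chr12:104300722-104320586), Serpina3k (chr12:104338486-104345739), Serpina3m (chr12:104387157-104394259) and Serpina3n (chr12:104406646-104414334) close it. Their transcripts are close paralogs, and identity reached 90.9% between Serpina3k and Serpina3m, 89.6% between Serpina3c and Serpina3m and 88.5% between Serpina3f and Serpina3g. It was 81.3% between Serpina3c and Serpina3n. Of all 76-base windows of the transcript, 9.41% in Serpina3m, 8.74% in Serpina3g, 7.21% in Serpina3k and 5.57% in Serpina3f were shared with another gene of the array. The share was 1.41% in Serpina3n, 0.281% in Serpina3c, 0.1% in Serpina3b, 0.0962% in Serpina3j and 0 in Serpina3a. Counts of Serpina3k, Serpina3m, Serpina3g and Serpina3f are therefore uncertain to the extent that shared reads were divided between copies. Non-whole counts occurred in 53, 55, 56 and 14 of 101 libraries for these genes. They also occurred in 14 libraries for Serpina3n and 4 for Serpina3c.

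Promoters are shown for 4 members whose levels moved with the vector, the diet or the genotype. Each runs from 250 bases before the RefSeq start to 50 bases after it, 5′ to 3′ on the gene's strand, and capitals mark CAGAC or its reverse complement GTCTG, the letters of the SMAD box. The places are chr12:104112474-104112773 for Serpina3a, chr12:104127746-104128045 for Serpina3b, chr12:104153823-104154122 (minus strand) for Serpina3c and chr12:104406458-104406757 for Serpina3n.
Serpina3a: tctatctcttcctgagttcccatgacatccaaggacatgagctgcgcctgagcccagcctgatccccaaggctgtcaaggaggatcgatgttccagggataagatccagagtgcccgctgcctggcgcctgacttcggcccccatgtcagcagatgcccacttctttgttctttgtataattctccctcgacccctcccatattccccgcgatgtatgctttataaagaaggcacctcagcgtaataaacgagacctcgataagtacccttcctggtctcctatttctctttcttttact
Serpina3b: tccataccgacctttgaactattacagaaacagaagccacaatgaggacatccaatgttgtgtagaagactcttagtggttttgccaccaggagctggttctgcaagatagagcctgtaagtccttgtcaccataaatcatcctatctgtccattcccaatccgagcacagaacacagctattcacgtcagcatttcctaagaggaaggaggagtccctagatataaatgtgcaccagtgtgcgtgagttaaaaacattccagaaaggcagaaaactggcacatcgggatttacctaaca
Serpina3c: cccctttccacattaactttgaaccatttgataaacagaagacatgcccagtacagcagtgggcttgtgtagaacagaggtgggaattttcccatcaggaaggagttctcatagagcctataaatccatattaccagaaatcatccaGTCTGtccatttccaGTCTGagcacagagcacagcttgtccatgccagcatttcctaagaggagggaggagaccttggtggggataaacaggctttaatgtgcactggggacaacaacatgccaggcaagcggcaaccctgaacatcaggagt
Serpina3n: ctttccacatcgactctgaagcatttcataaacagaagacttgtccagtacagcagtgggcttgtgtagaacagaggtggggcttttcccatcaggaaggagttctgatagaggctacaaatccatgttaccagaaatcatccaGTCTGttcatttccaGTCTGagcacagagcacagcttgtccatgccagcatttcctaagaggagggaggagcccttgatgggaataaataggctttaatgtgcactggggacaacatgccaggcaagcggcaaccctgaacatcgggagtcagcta
The windows of Serpina3c and Serpina3n were 93.5% identical over 294 aligned bases, and each held CAGAC at 2 places, counting both strands. Serpina3a and Serpina3b held none. Of 32851 RefSeq promoters of the same length 49.6% held at least 1, so the motif is common. AGAACA, letters of a glucocorticoid receptor site, occurred once in each of the 4 windows and in 19% of promoters. TATAAA occurred in Serpina3a (2 places), Serpina3b (1) and Serpina3c (1) but not in the Serpina3n window, against 13.6% of promoters. TTCNNNGAA, the letters of a STAT site, was found only in the windows of Serpina3f and Serpina3g among the 7 members with a promoter entry, against 8.3% of promoters. A match describes letters and no binding was measured.

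Most of the family's transcript in fat came from Serpina3n and Serpina3c. Together they made 87.6 to 96.6% of the counts of the 9 genes, as means of the 12 groups. The lowest single library was at 42.0%, a WT HFD epididymal library rich in Serpina3k. Per kilobase of transcript, the group means of Serpina3n were 112 to 219 CPM per kb and those of Serpina3c 48.4 to 111. The other members had no fixed order, since their group means per kb varied widely. Serpina3g ran from 1.1 to 22.0, Serpina3b from 0.00789 to 21.2 and Serpina3m from 1.68 to 6.72 CPM per kb. Serpina3k ran from 1.58 to 6.21 in 11 groups, and its 50.4 CPM per kb in WT HFD epididymal fat came from 2 liver-rich libraries. Serpina3f ran from 0.168 to 3.97, Serpina3a from 0 to 1.3 and Serpina3j from 0 to 0.97 CPM per kb.

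**Figure D1:**
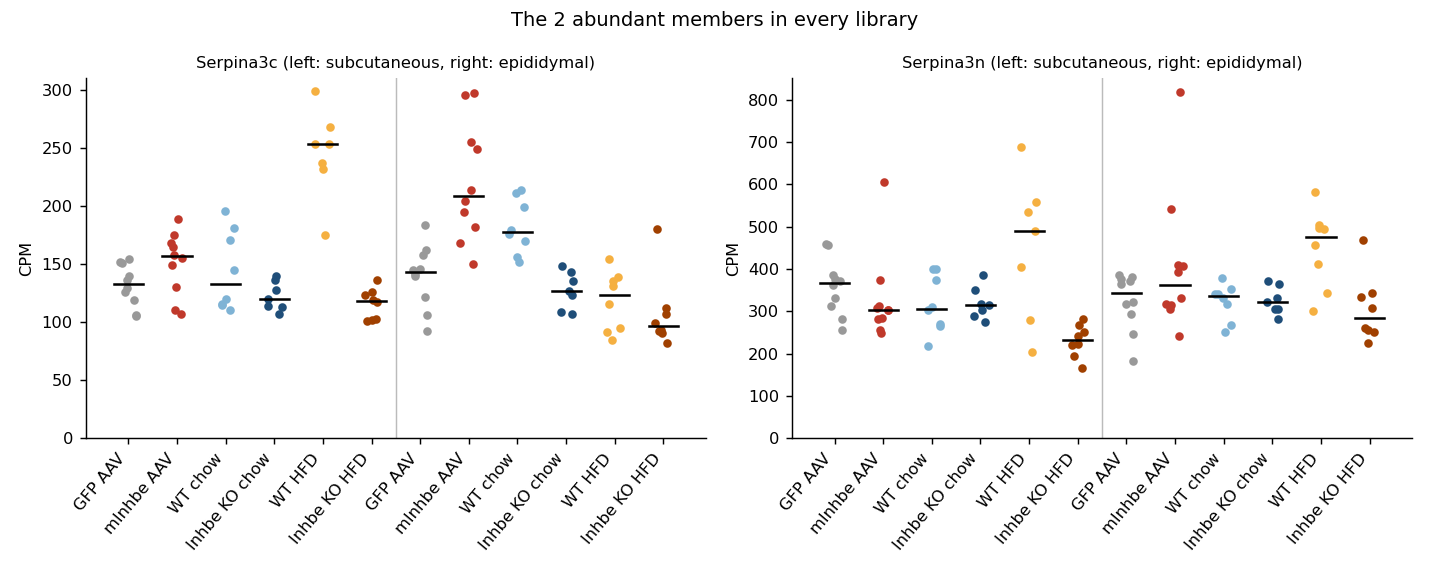
Serpina3c (left) and Serpina3n (right) in every library, in CPM on a linear axis that starts at 0. Each point is 1 library, black bars are group medians, and the grey line separates subcutaneous from epididymal fat. Serpina3c is highest in WT HFD subcutaneous fat (median 253 CPM), and KO HFD subcutaneous fat lies wholly below it.

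Serpina3n had its highest group means in WT mice on HFD, at 451 ± 168 CPM in subcutaneous fat (SD, n = 7) and 449 ± 92.5 in epididymal fat (n = 8). The mInhbe epididymal group followed at 408 ± 166 (n = 10). The lowest mean was 230 ± 38.1 CPM in KO HFD subcutaneous fat (n = 8), and the other 8 groups lay between 306 and 359. Each step between neighbours in this order was smaller than the larger of the 2 SDs, so neighbours did not differ beyond their spread. Serpina3c was ordered otherwise. Its mean was 245 ± 38.3 CPM in WT HFD subcutaneous fat, 221 ± 51.2 in mInhbe epididymal fat and 182 ± 23.6 in WT chow epididymal fat. The remaining 9 groups ran from 151 ± 27.2 down to 107 ± 30.8 CPM in KO HFD epididymal fat, each step among them smaller than the larger SD. The step from 182 to 151 CPM was the exception, larger than either SD.

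The epididymal comparison of mInhbe with GFP is the one the members were chosen by: their higher levels with mInhbe there drew attention to the family. Its values are therefore given as a description, without a test. The levels of Serpina3a, Serpina3b and Serpina3c were higher with mInhbe. Serpina3b ranged from 1.02 to 10.2 CPM with GFP (median 4.58) and from 25.3 to 65.5 with mInhbe (median 44.4), a log2 fold change of 3.31 ± 0.30 or 9.89-fold. No mInhbe library overlapped a GFP library. Serpina3a was between 0 and 0.177 CPM in 9 GFP libraries and at 1.62 CPM in GFP library 8, against 1.33 to 4.09 CPM with mInhbe (median 2.05). Its log2 fold change was 3.17 ± 0.54, or 8.98-fold, and 4.52 without GFP libraries 7 and 8. Serpina3c ranged from 92.2 to 184 CPM with GFP (median 143) and from 150 to 297 with mInhbe (median 209). This amounted to 0.67 ± 0.15, or 1.59-fold, and 7 of 10 mInhbe libraries lay above the highest GFP library. The other members differed less relative to their error, with Serpina3m at 0.95 ± 0.30, Serpina3f at 0.84 ± 0.42, Serpina3g at 0.44 ± 0.30, Serpina3n at 0.34 ± 0.19 and Serpina3k at 0.09 ± 0.56. Of 8 members fitted 3 passed the threshold in this fit, where 1.16% of all genes did (0.761% higher), and nothing is read from this count, since the contrast chose the genes.

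Epididymis, the organ that this fat pad is attached to, left transcripts in these libraries. The sum of 13 epididymis markers was 4.09 to 12800 CPM with GFP and 2400 to 27800 with mInhbe. With that score as a covariate the log2 fold changes were 3.25 for Serpina3a, 3.33 for Serpina3b and 0.68 for Serpina3c. GFP library 7 had the least epididymis transcript, and GFP library 8, the one high in Serpina3a, held 1400 CPM of 9 brown fat markers, against 40.3 CPM at the group's median. Library 9 of the mInhbe group was the highest in Serpina3m (27.7 CPM) and Serpina3n (818 CPM), and without it the 3 changes were 3.03, 3.28 and 0.61.

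Subcutaneous fat of the same vector groups offers values that the choice of genes did not use for Serpina3a and Serpina3b. Both were too low there for the filter on low counts, and a permutation test over libraries, chosen after seeing the data, took the place of the fit. Serpina3b had 0 to 0.233 CPM with GFP (median 0.0575) and 0.377 to 2.42 CPM with mInhbe (median 1.76). The lowest mInhbe library lay above the highest GFP library, in a comparison in which 27.2% of all tested genes were called. Pooled counts were 263 against 15, a ratio of 17.9 (95% interval 10.7 to 32.5). The 2-sided permutation p was 2e-05, the smallest that the resamples can give (adjusted p = 0.00023 over 23 such tests). Serpina3a had 59 counts with mInhbe and 4 with GFP, a ratio of 15.1 (5.59 to 57.2), with means of 0.347 and 0.0224 CPM (permutation p = 2e-05, again the smallest possible, adjusted p = 0.00023). All 10 mInhbe libraries were above the GFP mean of Serpina3a and 9 were above the highest GFP library. Epididymis markers summed to at most 1.71 CPM in these subcutaneous groups, with 9 (GFP) and 8 (mInhbe) of 13 at 0. Mesothelium markers moved with Serpina3a and Serpina3b. Their sum over 9 genes was 5.21 to 27.7 CPM with GFP (median 9.38) and 8.05 to 122 CPM with mInhbe (median 31.4), with Upk3b at 0 in both groups, and medians were 456 and 539 CPM in the epididymal groups. The part of mesothelium in this result was not tested.

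**Figure D2:**
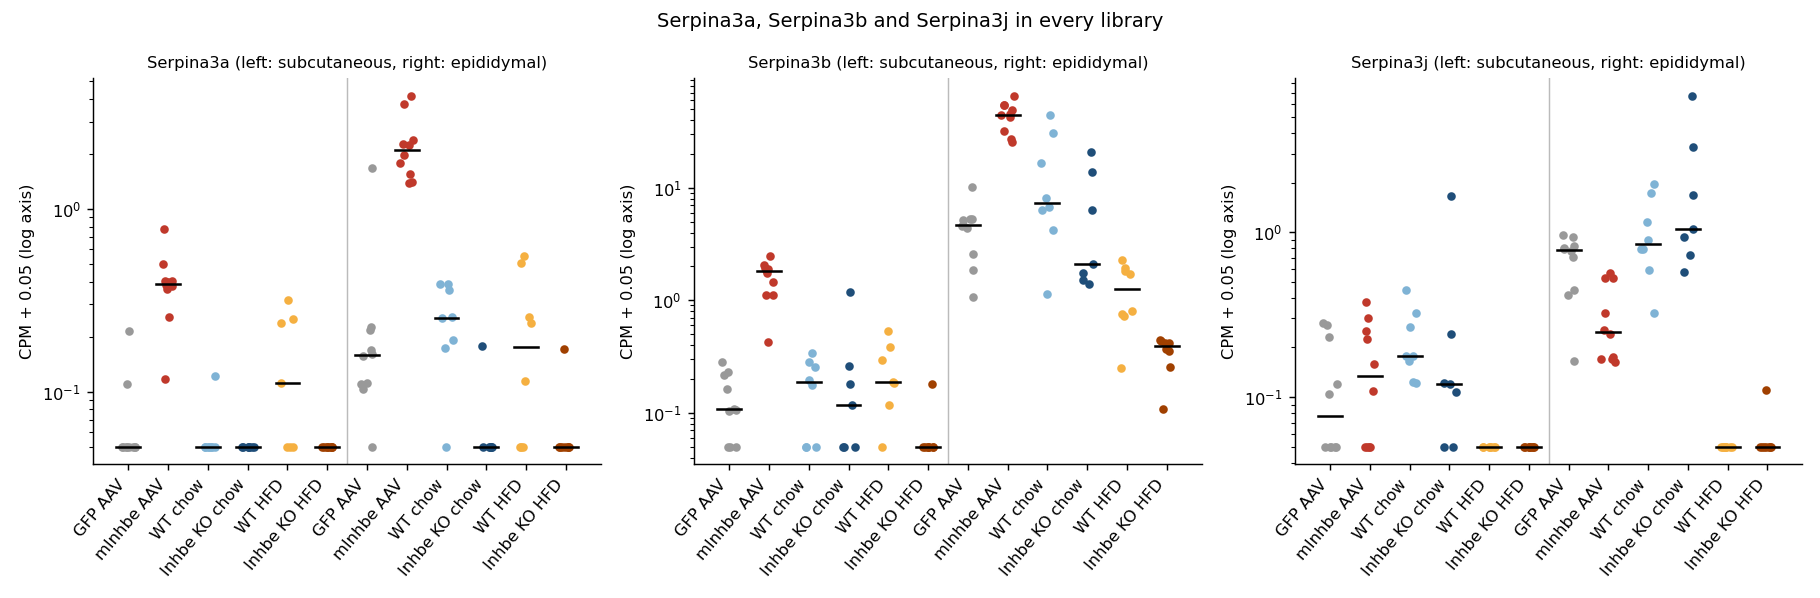
Serpina3a, Serpina3b and Serpina3j in every library, as CPM + 0.05 on a log axis, so that libraries with no count sit at 0.05. Points are libraries, black bars are medians, and the grey line separates subcutaneous (left) from epididymal fat (right). Serpina3a and Serpina3b are higher with mInhbe than with GFP in both depots, and Serpina3j is at the bottom in all HFD groups.

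None of the 6 members that passed the filter was called in subcutaneous fat for the vector (edgeR's quasi-likelihood test, adjusted p from 0.194 to 0.786). The largest positive value was 0.25 ± 0.14 for Serpina3f (adjusted p = 0.194). Serpina3c was at 0.10 ± 0.10 (adjusted p = 0.499) and Serpina3n at -0.23 ± 0.14 (adjusted p = 0.225). Without mInhbe library 2, which held 606 CPM of Serpina3n against 248 to 375 CPM in the rest of its group, Serpina3n was called lower (-0.37, adjusted p = 0.0152). The difference between depots in the response to the vector uses the epididymal values that the members were chosen by, so it is a description, with no test. It was 0.56 ± 0.18 for Serpina3c, -0.31 ± 0.54 for Serpina3a and -0.68 ± 0.53 for Serpina3b, with 95% intervals from -1.38 to 0.75 and from -1.72 to 0.36 for the last pair. These intervals do not show that the depots responded alike. In that fit 13.5% of all genes were called.

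Within the mInhbe libraries the level of Inhbe transcript was compared with each member over 10 libraries a depot, on the scale of log2(CPM + 1). Of 14 such relations none passed after adjustment (lowest adjusted p 0.714 for Pearson's r and 0.425 for Spearman's rho, permutation tests). The lowest unadjusted p belonged to Serpina3b in subcutaneous fat, with r = -0.52 (permutation p = 0.118, r = -0.70 without the 2 most distant libraries) and rho = -0.70 (permutation p = 0.0303). Without the 2 most distant libraries r also moved in subcutaneous fat from -0.35 to -0.90 for Serpina3n, from -0.12 to -0.76 for Serpina3c and from -0.48 to -0.73 for Serpina3m, so these values depend on 2 of 10 libraries.

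Loss of Inhbe on chow left the tested members without a call in either depot. In subcutaneous fat 0 of 6 were called (0.253% of all genes), and in epididymal fat 0 of 8 (0.658% of all genes). Serpina3n was at 317 ± 67.8 (WT, n = 8) and 319 ± 37.8 CPM (KO, n = 7) in subcutaneous fat and at 323 ± 43 and 326 ± 32.2 CPM in epididymal fat. Its changes were 0.08 ± 0.19 and 0.04 ± 0.16, each with an adjusted p of 1 in edgeR's test. Serpina3c in epididymal fat ranged from 152 to 214 CPM in WT (median 178) and from 107 to 148 CPM in KO (median 127). The 2 groups did not overlap, but the change of -0.48 ± 0.17 did not pass over all genes (adjusted p = 0.317). Serpina3b varied more than 10 times within each genotype, from 1.09 to 44.5 CPM in WT and from 1.36 to 20.6 CPM in KO, and its change was -1.11 ± 0.61 (adjusted p = 0.924). Serpina3a, below the filter, had 25 counts in the WT and 2 in the KO epididymal libraries, a ratio of 11.0 (2.74 to 95.7) and an exact permutation p of 0.00466 (adjusted p = 0.0174). It was at 0.207 ± 0.118 CPM in WT and 0.0181 ± 0.0478 CPM in KO, and these are levels near 1 or 2 counts a library.

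On HFD the genotypes parted. In subcutaneous fat Serpina3c, Serpina3m and Serpina3n were lower in KO than in WT, 3 of 6 tested members, where 18.9% of all genes were called and 11.6% were lower. Serpina3c ran from 175 to 299 CPM in WT (median 253) and from 101 to 136 CPM in KO (median 118), with no overlap. It fell 1.89-fold (-0.92 ± 0.14, adjusted p = 1.7e-05). Serpina3n was at 203 to 688 CPM in WT (median 490) and 166 to 282 CPM in KO (median 232). It fell 1.75-fold (-0.81 ± 0.19, adjusted p = 0.00236), and all 8 KO libraries were below the WT mean. Serpina3m fell 2.29-fold (-1.19 ± 0.31, adjusted p = 0.00753), from 4.19 to 13.5 CPM (median 5.62) to 1.55 to 4.44 CPM (median 2.85). The 9 genes summed to 726 ± 190 CPM in WT and 373 ± 41.6 CPM in KO.

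The subcutaneous fall of Serpina3n and Serpina3m rests in part on 3 of the 7 WT HFD libraries. Libraries 1, 2 and 4 of that group held 558, 688 and 534 CPM of Serpina3n and 7.51, 13.5 and 9.68 CPM of Serpina3m, the 3 highest of the group for each gene. The same libraries held 12.0, 14.4 and 20.5 CPM over 13 lymph node and B cell markers, against 519 CPM at the group's median, and 1450, 889 and 997 CPM over 10 macrophage markers, the 3 highest of the group. Without them and WT chow library 1, which also had little lymph node transcript (17.2 CPM), Serpina3n was at -0.40 (adjusted p = 0.0895) and Serpina3m at -0.61 (adjusted p = 0.162), while Serpina3c stayed called. Serpina3f then passed as lower (-0.84, adjusted p = 0.00799), against -0.56 ± 0.36 (adjusted p = 0.283) with all libraries. Serpina3b, below the filter, had 22 counts in WT and 2 in KO, a ratio of 12.7 (3.13 to 112; exact permutation p = 0.00528, adjusted p = 0.0174). Serpina3a had 11 counts in WT and 0 in KO, at least 4.24-fold lower against a floor of 3 counts over the group, and did not pass (exact permutation adjusted p = 0.107).

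In epididymal fat on HFD 3 of 8 tested members were lower in KO and none was higher, where 37.2% of all genes were called and 20.2% were lower. The share of members called is thus near that of all genes, and the count went to 1 without WT HFD libraries 4 and 5. Serpina3m fell 2.22-fold (-1.15 ± 0.23, adjusted p = 0.000189), from 5.4 to 18.5 CPM in WT (median 10.6) to 2.41 to 7.4 CPM in KO (median 4.55), and 7 of 8 KO libraries lay below the lowest WT library. Serpina3b was low in both, with a median of 1.2 CPM (0.2 to 2.24) in WT and 0.341 CPM (0.0573 to 0.395) in KO. It had 161 counts in WT and 37 in KO, a ratio of 4.28 (2.98 to 6.29). Its change was -1.85 ± 0.71, and -1.86 without WT HFD libraries 4 and 5. Each KO HFD library held 1 to 6 counts, so Serpina3b passed the filter through other groups. It is in the count of 3, but no p is given. The third was Serpina3k (-4.82 ± 1.33, adjusted p = 0.00473), whose call those same 2 libraries carried, as described with the liver markers. Serpina3n was at 300 to 583 CPM in WT (median 475) and 224 to 469 CPM in KO (median 285), with 4 of 8 KO libraries below the lowest WT library. Its change of -0.35 ± 0.16 did not pass (adjusted p = 0.0817). Serpina3c did not separate the genotypes here (0.06 ± 0.16, adjusted p = 0.799), and the difference from its subcutaneous response was called (0.96 ± 0.20, adjusted p = 0.00117, 14.6% of all genes called). Macrophage markers summed to 4090 to 6310 CPM in WT HFD epididymal fat, 802 to 1640 CPM in KO HFD and 683 to 1190 CPM in WT chow. Among these epididymal groups they were highest in WT HFD, as were Serpina3m and Serpina3n. In WT HFD subcutaneous fat Serpina3n had a mean of 451 CPM and the markers summed to 612 to 1450 CPM. The part of macrophages in the result was not tested.

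**Figure D3:**
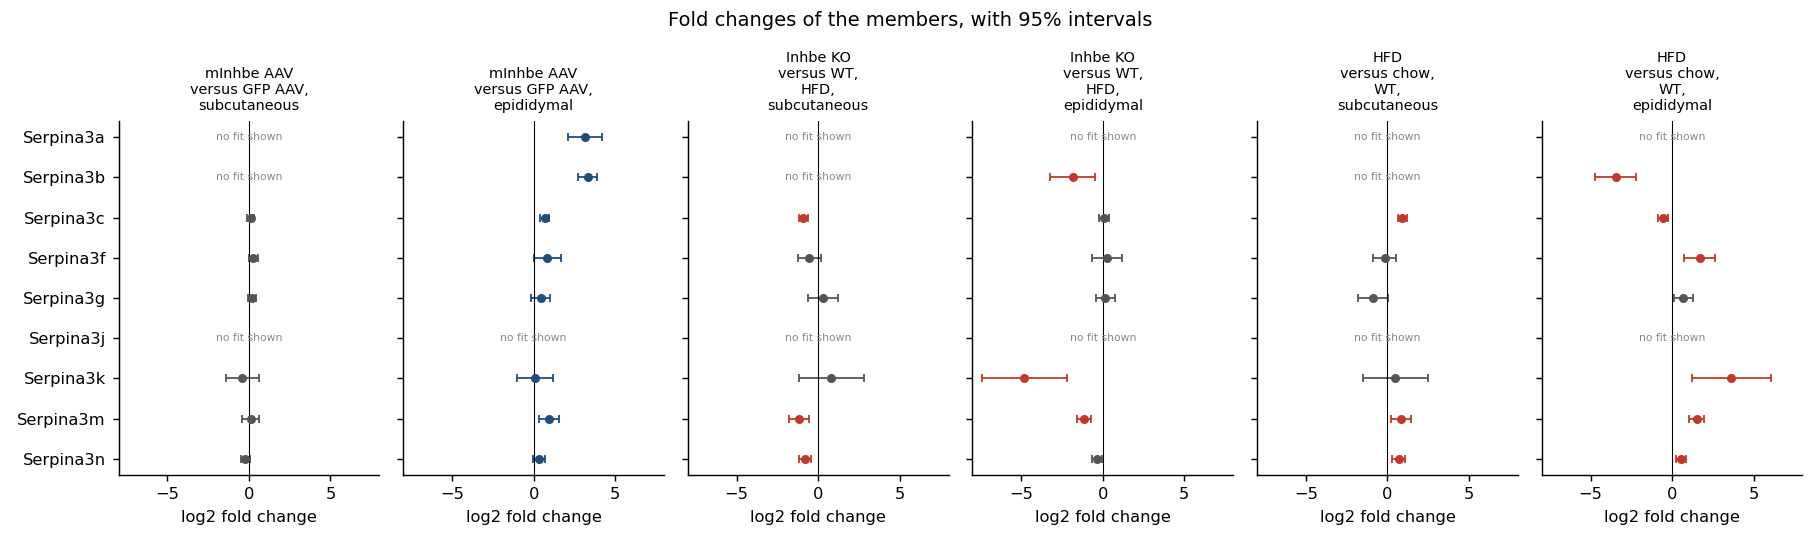
Log2 fold changes of the members in 6 comparisons, with 95% intervals (1.96 times the SE). Red marks members called by edgeR, grey those not called, and blue the epididymal vector comparison, which is given without a call. "No fit shown" stands for members below the filter and for Serpina3j on HFD, which is given as a bound. Serpina3f is drawn for HFD in WT epididymal fat, although it passed the filter there through the HFD groups. Serpina3b is drawn for KO on HFD in epididymal fat, although its KO HFD libraries were below the filter. Serpina3c, Serpina3m and Serpina3n lie left of 0 for KO on HFD and right of 0 for HFD in WT, both in subcutaneous fat.

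The HFD comparisons share the WT HFD libraries with the genotype comparisons, so the values stand side by side only. In WT subcutaneous fat Serpina3c rose 1.89-fold (0.92 ± 0.14, adjusted p = 4.51e-06), Serpina3n 1.6-fold (0.68 ± 0.19, adjusted p = 0.00392) and Serpina3m 1.77-fold (0.82 ± 0.31, adjusted p = 0.0314). These were 3 of 6 tested members, with 44.1% of all genes called and 22.6% higher. In 6 of 7 HFD libraries Serpina3c was above the highest chow library (196 CPM). Without the 4 libraries poor in lymph node transcript Serpina3n (0.37, adjusted p = 0.101) and Serpina3m (0.37, adjusted p = 0.379) were no longer called, and with a covariate for lymph node transcript they were at 0.30 each (adjusted p = 0.135 and 0.445). In KO subcutaneous fat HFD called 0 of 6 members (20.7% of all genes). Serpina3c was at 0.17 ± 0.14 (adjusted p = 0.404), Serpina3m at -0.36 ± 0.32 (adjusted p = 0.459) and Serpina3n at -0.21 ± 0.19 (adjusted p = 0.452). Still, 7 of 8 KO HFD libraries of Serpina3n and all 8 of Serpina3f lay below the lowest KO chow library. Among tested members only Serpina3k had a KO HFD library above the highest KO chow library, 1 of 8.

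The test of whether genotype changed the response to diet called Serpina3c in subcutaneous fat (-0.74 ± 0.20, adjusted p = 0.0377), where 2.14% of all genes were called. Without the 4 libraries poor in lymph node transcript it was at -0.71 (adjusted p = 0.0539). Serpina3n (-0.89 ± 0.26, adjusted p = 0.0699) and Serpina3m (-1.18 ± 0.44, adjusted p = 0.182) did not pass. Serpina3n was called without WT chow library 1 (-0.99, adjusted p = 0.0259), without the liver-rich libraries WT HFD 6 and KO HFD 2 (-1.0, adjusted p = 0.0173) and with DESeq2 (-0.90, adjusted p = 0.0298) or voom (-1.30, adjusted p = 1.59e-05). Voom also called Serpina3m (-1.67, adjusted p = 0.00792). In epididymal fat the interaction called Serpina3m (-1.48 ± 0.33, adjusted p = 0.00208), where 16.5% of all genes were called. Serpina3m rose 2.83-fold on HFD in WT epididymal fat (1.50 ± 0.23, adjusted p = 2.93e-06), from 2.43 to 6.03 CPM to 5.4 to 18.5 CPM, and lay at 0.02 ± 0.24 in KO (adjusted p = 0.959).

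HFD moved the other members in epididymal fat in opposite directions. In WT 4 of 8 tested members rose and 3 fell, where 54.1% of all genes were called, 28.9% higher and 25.2% lower. In KO 2 rose and 2 fell, where 38.7% of all genes were called, 24.7% higher and 13.9% lower. Serpina3f and Serpina3j are in these counts, and Serpina3b is in that of KO, although they passed the filter through the groups where they are high. One of the 4 that rose was Serpina3k, which was called lower without WT HFD libraries 4 and 5, so that 3 rose and 4 fell. Serpina3n rose 1.47-fold in WT (0.55 ± 0.16, adjusted p = 0.0041) and was at 0.16 ± 0.16 in KO (adjusted p = 0.44). Serpina3c fell 1.45-fold in WT (-0.54 ± 0.16, adjusted p = 0.00565), from 152 to 214 CPM to 84.5 to 154 CPM, and 7 of 8 HFD libraries were below the lowest chow library. In KO Serpina3c was at 0.01 ± 0.17 (adjusted p = 0.971). Serpina3c thus rose on HFD in one depot of WT mice and fell in the other, and the test of that difference gave -1.51 ± 0.20 (adjusted p = 4.24e-08, 33.3% of all genes called).

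Serpina3b and Serpina3j were low on HFD. Serpina3b in WT epididymal fat fell 11-fold (-3.46 ± 0.65, adjusted p = 5.33e-05), from a median of 7.35 CPM to 1.2 CPM. In KO it had 703 counts on chow and 37 on HFD, a ratio of 22.2 (15.9 to 31.8), and -4.20 ± 0.73 in the fit. Its median there went from 2.05 CPM (1.36 to 20.6) to 0.341 CPM, with no overlap. Each KO HFD library held 1 to 6 counts, so Serpina3b passed the filter through other groups and no p is given for KO. Serpina3j was counted in every chow epididymal library of both genotypes, at 0.275 to 1.91 CPM in WT (median 0.797) and 0.528 to 6.67 CPM in KO (median 1.0). On HFD it had 0 counts in all 8 WT libraries and 1 count in 1 of 8 KO libraries. That is at least 41.7-fold lower in WT, against a floor of 3 counts over the group. In KO, 216 counts on chow against 1 on HFD gave a ratio of 252, with a counting interval from 44.8 to 10000. Serpina3j passed the filter in epididymal fat through the chow groups, where it is high, so no p is given. In subcutaneous fat Serpina3j had 21 counts on chow and 0 on HFD in WT, at least 6.36-fold lower (exact permutation p = 0.000311, adjusted p = 0.00179). In KO it had 30 counts, 24 of them in library 5, and 0, at least 11.9-fold lower (exact permutation p = 0.014, adjusted p = 0.0402). With mInhbe in epididymal fat Serpina3j, below the filter there, had 45 counts against 111 with GFP, a ratio of 0.413 (0.285 to 0.589), given as a description. Epididymis markers reached 11600 CPM in chow epididymal libraries of the KO experiment and 2380 CPM in HFD ones. When that score entered the fit Serpina3b was at -3.39 in WT (adjusted p = 4.81e-05) and -3.69 in KO. Mesothelium markers, 9 genes of the sheet of cells that covers this fat pad, fell along with both genes in epididymal fat. Their sum had a median of 409 CPM on chow and 81.4 CPM on HFD in WT, and of 356 and 172 CPM in KO, and their part in these falls was not tested.

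Serpina3f and Serpina3g followed depot. Serpina3g had group means of 13.2 to 39.7 CPM in subcutaneous and 1.98 to 5.12 CPM in epididymal fat, and Serpina3f of 2.85 to 8.92 and 0.377 to 2.14 CPM. In the GFP groups Serpina3g was at 22.6 to 46.2 CPM in subcutaneous fat (median 30.9) and at 0.995 to 7.58 CPM in epididymal fat (median 2.31), with no overlap. Serpina3g was lower in epididymal fat in all 6 pairs of groups, from -3.66 ± 0.25 with GFP to -1.42 ± 0.41 in WT HFD on the log2 scale. Serpina3f was called lower in WT HFD (-1.26 ± 0.42) and was not called in KO HFD (-0.50 ± 0.41, adjusted p = 0.339). With GFP it was at -3.92 ± 0.31, as a description. In the vector and chow arms its epididymal libraries had medians of 6 to 11 counts. There Serpina3f passed the filter of the joint fit through subcutaneous groups, where it is high, so those pairs are given without a call. Serpina3b was higher in epididymal fat in all 4 pairs of the KO experiment. In WT chow it had 1799 counts there against 15 in subcutaneous fat, a ratio of 118 (71.1 to 210). In KO HFD the counts were 37 and 2, a ratio of 18.6 (4.79 to 159). Serpina3b passed the filter of the joint fit through epididymal groups, where it is high, so no p is given. Serpina3c was higher in epididymal fat in WT chow (0.36 ± 0.14, adjusted p = 0.0355), and lower in WT HFD (-1.15 ± 0.15, adjusted p = 6.63e-09). With GFP its difference was 0.02 ± 0.13 and with mInhbe 0.58 ± 0.13, given without a test since these epididymal libraries chose the members. Serpina3n was called in none of the 6 pairs. The share of all genes called between depots was 64.5% with GFP, 64.7% with mInhbe, 43.1% in WT chow, 36% in KO chow, 40.8% in WT HFD and 41.8% in KO HFD, so a depot difference is common.

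On HFD, epididymal Serpina3f had 264 counts against 84 on chow in WT, a ratio of 3.01 (2.35 to 3.9). In KO it had 253 against 41, a ratio of 5.29 (3.79 to 7.55). Single chow libraries held 4 to 19 counts in WT and 2 to 10 in KO. Serpina3f passed the filter in epididymal fat through the HFD groups, where it is high, so no p is given. Serpina3g rose 2.95-fold in KO (1.56 ± 0.32, adjusted p = 0.000302) and was at 0.68 ± 0.30 in WT (adjusted p = 0.0559). In subcutaneous fat both were uncalled in either genotype. There the calls depended on the fit, since without WT chow library 1 Serpina3g was called lower on HFD in WT (-1.09, adjusted p = 0.0245), voom called both lower in WT (-2.41 and -0.92, adjusted p = 8.37e-05 and 0.0173), and a 2-group fit called Serpina3f lower in KO (-0.45, adjusted p = 0.0199). The response to HFD differed between depots in WT for Serpina3g (1.55 ± 0.57, adjusted p = 0.0308). That call was lost without WT HFD epididymal libraries 4 and 5 (1.41, adjusted p = 0.068). For Serpina3f the difference was 1.80 ± 0.61, a description only, since it uses the same low chow counts. Between depots, lymph node and B cell markers moved with both genes. They summed to 814 to 1630 CPM in GFP subcutaneous libraries and to 25.2 to 170 CPM in the epididymal libraries of all 6 arms. WT chow subcutaneous library 1 had 17.2 CPM of these markers, 0.319 CPM of Serpina3f and 1.02 CPM of Serpina3g, the lowest of its group in each. The part of lymph node tissue in the depot difference was not tested. With HFD in epididymal fat these markers did not rise, with medians of 107 CPM on chow and 91.6 CPM on HFD in WT, and of 80.1 and 73.5 CPM in KO. The sum of T cell markers (10 genes found of 11) was higher there, with medians of 21.3 and 133 CPM in WT and of 16.4 and 39.9 CPM in KO, and its part in the rise of Serpina3f and Serpina3g was not tested.

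**Figure D4:**
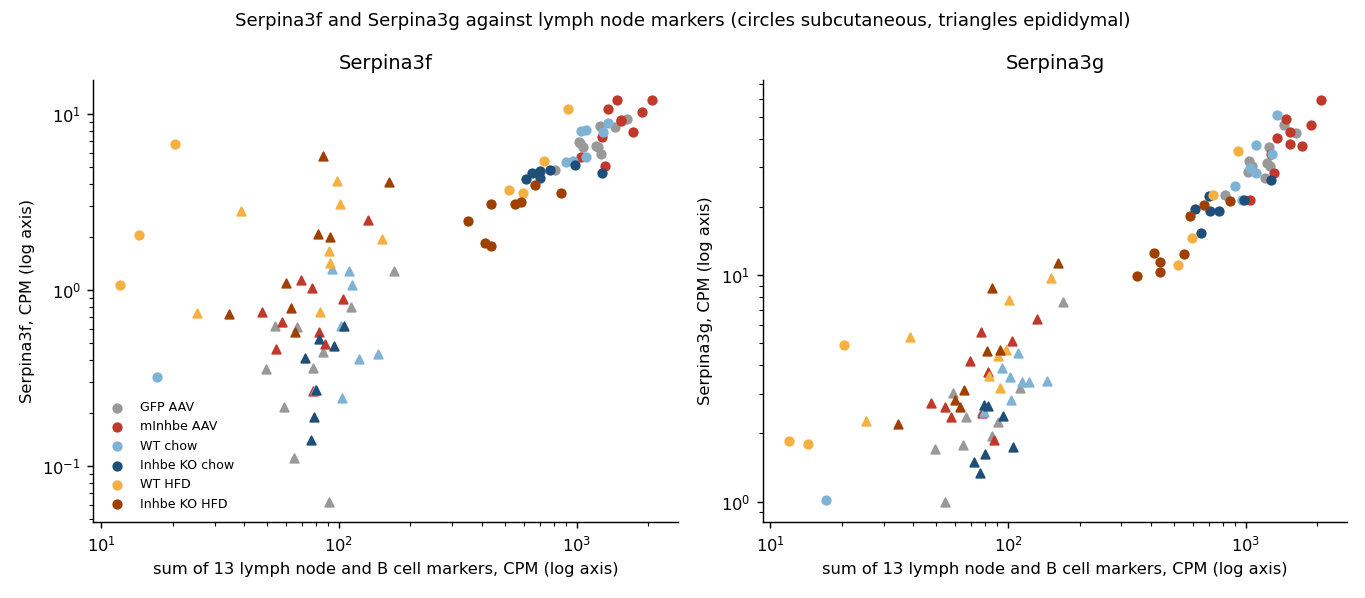
Serpina3f (left) and Serpina3g (right) against the sum of 13 lymph node and B cell markers, both in CPM on log axes. Each point is 1 library, circles are subcutaneous and triangles epididymal, and colours are the 6 arms. WT chow library 1 (17.2 CPM of markers) and WT HFD libraries 1, 2 and 4 (12.0, 14.4 and 20.5 CPM) are the 4 subcutaneous libraries that lie among or left of the epididymal ones.

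Serpina3k values turned on a few libraries. In WT HFD epididymal fat it was at 164 CPM in library 4 and 658 CPM in library 5, and at 0.0666 to 2.01 CPM in the other 6. Albumin transcript (Alb), a hepatocyte product, was at 814 and 3260 CPM in the same 2 libraries and at 0.87 to 1.36 CPM in the others. In these 2 libraries 16 liver markers summed to 1370 and 5440 CPM. Alb also differed with genotype, at 14.2 to 43.7 CPM in KO HFD epididymal fat. In subcutaneous fat on chow it was at 71.6 to 102 CPM in KO and 16.7 to 36.7 CPM in WT. With all libraries Serpina3k was called lower in KO on HFD and higher on HFD in WT (3.63 ± 1.23, adjusted p = 0.0144). Without libraries 4 and 5 the first was at 1.77 (adjusted p = 0.107) and the second was called the other way (-2.94, adjusted p = 0.00573). The call that the response to genotype on HFD differed between depots (-5.61 ± 1.66, adjusted p = 0.0178) likewise ended at 0.94 (adjusted p = 0.72). In subcutaneous fat the highest Serpina3k of the KO experiment was in KO HFD library 2 (36.9 CPM, with 325 CPM of Alb) and WT HFD library 6 (21.3 CPM, with 160 CPM of Alb). Serpina3k was also at up to 41.3 CPM in GFP epididymal libraries, where Alb was at 2.62 to 7.69 CPM.

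**Figure D5:**
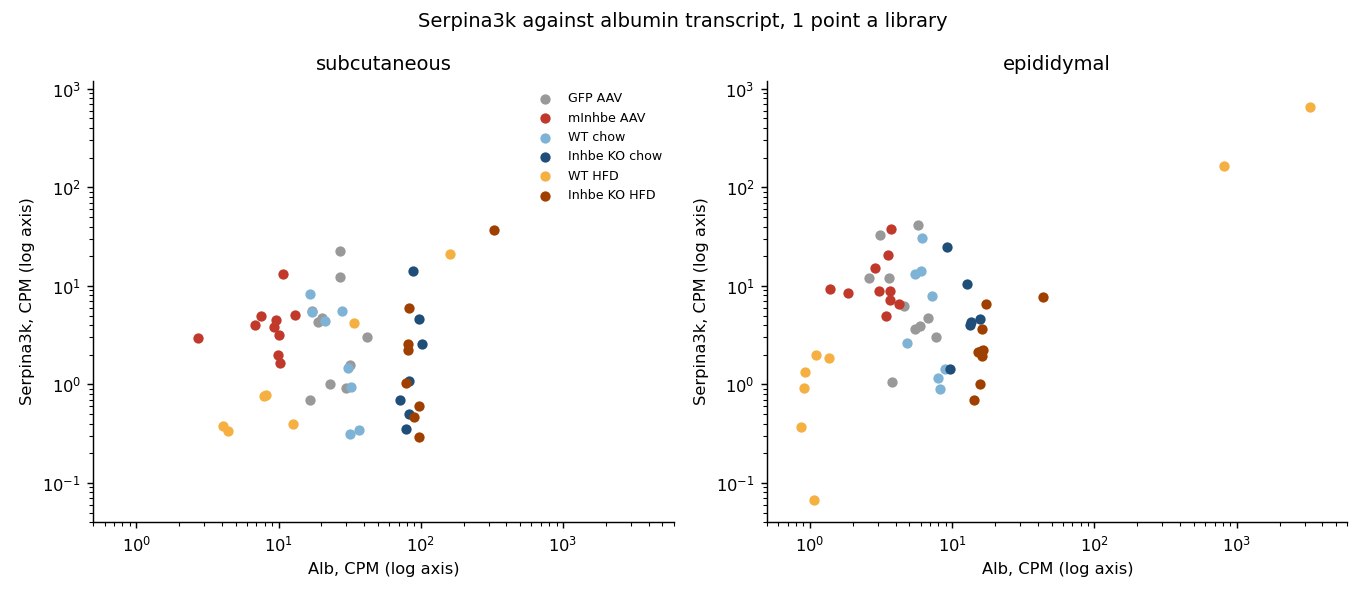
Serpina3k against Alb in every library, in CPM on log axes, for subcutaneous (left) and epididymal fat (right). Points are libraries coloured by arm. WT HFD epididymal libraries 4 and 5 (164 and 658 CPM of Serpina3k) lie at the upper right, apart from the other 6 of their group.

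Across the means of the 12 groups, on the scale of log2(CPM + 1), members fell into sets that say how alike their patterns were. Serpina3f and Serpina3g had a Pearson r of 0.967, Serpina3b and Serpina3k 0.859, Serpina3m and Serpina3n 0.848, Serpina3a and Serpina3b 0.827, and Serpina3c and Serpina3n 0.482. The genes most like Serpina3g were Ccr7 (0.995), a homing receptor of lymphocytes and dendritic cells, Il2rg (0.993), the shared chain of interleukin receptors, and Il4i1 (0.993). Serpina3f was most like Il2rg (0.979), AW112010 (0.975) and Kif21b (0.975). For Serpina3n these were Foxs1 (0.94), Cracr2b (0.938) and Tpst1 (0.934), and for Serpina3c Slco3a1 (0.939), Nrarp (0.898), a Notch feedback gene, and Slc22a3 (0.882). Serpina3m was most like Entpd7 (0.931), Serpina3b like Arhgap8 (0.924), Serpina3k like Bex3 (0.947) and Serpina3j like Has3 (0.928), a hyaluronan synthase. Serpina3a was most like Svs3a and Svs3b (0.961 each), seminal vesicle secretory genes. These are descriptions over 12 points that share libraries and depth.

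The genes around the family are given by lists, as counts and medians. For KO on HFD 11.6% of all genes were lower in subcutaneous and 20.2% in epididymal fat, and a list's count near that share is no result about the list. For the vector 27.2% and 1.16% of all genes were called. Targets of SMAD2/3, the transcription factors that activin-type ligands switch on, had 11 of 15 tested genes lower in KO on HFD in subcutaneous fat (median -0.83, all genes -0.01) and 13 lower in epididymal fat (median -0.77, all genes 0.01). Pmepa1, a feedback inhibitor of TGF-beta signalling, was at -3.14 ± 0.23 and -2.59 ± 0.13, with adjusted p = 3.19e-11 and 1.78e-14. With mInhbe 5 were higher in subcutaneous and 4 in epididymal fat. Acute-phase and interleukin-6/STAT3 genes, a class that SERPINA3 is known for, had 6 of 19 lower in KO HFD subcutaneous fat (median -0.31), led by haptoglobin (Hp, -2.48 ± 0.17) and Lrg1 (-2.43 ± 0.17), each with adjusted p = 1.66e-11. In epididymal fat 11 of 19 were lower and 1 higher (median -0.51), with Hp at -2.04 ± 0.17 and Lrg1 at -1.65 ± 0.17 (adjusted p = 1.64e-10 and 4.51e-09). With mInhbe 2 of 18 were higher and 1 lower in subcutaneous fat, and none of 16 was called in epididymal fat. Proteases that A3 serpins are known or thought to inhibit had 4 of 12 lower in subcutaneous and 7 of 12 in epididymal KO fat on HFD (medians -0.52 and -0.74). The cathepsins led both, with Ctsl at -1.38 ± 0.11 (adjusted p = 8.59e-11) in subcutaneous and Ctsk at -2.05 ± 0.14 (adjusted p = 4.1e-12) in epididymal fat. Macrophages also express cathepsins, and the macrophage list had 6 and 8 of 10 lower. The part of macrophages in the lower cathepsin levels was not tested.

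The other Serpina genes of the cluster had 2 of 7 tested lower in KO HFD subcutaneous fat, the A3 paralogs Serpina3h (-1.37 ± 0.37, adjusted p = 0.00851) and Serpina3i (-1.60 ± 0.51, adjusted p = 0.0276). In epididymal fat 3 of 6 were lower, led by the alpha-1-antitrypsin gene Serpina1a (-4.40 ± 0.91, adjusted p = 0.000283), a liver product, and Serpina3h (-2.18 ± 0.47, adjusted p = 0.000373). Serpins outside the cluster had 7 of 13 and 9 of 14 lower. Glucocorticoid-induced genes went both ways in KO HFD, with 1 higher and 2 lower of 14 in subcutaneous and 3 and 3 in epididymal fat. Growth hormone and STAT5 genes had 2 higher and 2 lower of 11, and 3 and 3. Interferon genes had 1 of 16 lower, and 5 of 16.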

How the data were processed

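The values are estimated counts per Entrez gene, deposited by the authors in 2 tables (vector and KO experiments) and made on genome build mm10, per the submitters' processing notes. Not given in the sources used here: aligner, counting tool and any use of molecular identifiers. Of all values, 2.94% were not whole. Symbols matched 24375 of 24475 IDs. Counts were rounded and fitted in R 4.3.3 with edgeR 4.0.16 (TMM, filterByExpr with a minimum count of 10 and a total of 15, robust quasi-likelihood F test, Benjamini-Hochberg over all genes tested, adjusted p under 0.05). One fit per depot and experiment held all groups of that depot, and joint fits of both depots served the depot comparisons, 22 comparisons in all. The script was tested on simulated counts. Members left out by the filter were compared by permutation over libraries (exact, or 100000 resamples for 10 against 10). P-values measure the spread between libraries.

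The members, the 21 gene lists and the tests were chosen with earlier results of these data known. All 9 members are named. Each list gives up to 2 called genes with the smallest p in a comparison. Likeness gives the 3 genes (mean of at least 1 CPM) with the highest Pearson r over group means. Alternatives were RLE size factors, DESeq2 1.42.0, limma-voom (limma 3.58.1), no filter, a replicate block, tissue scores, 2-group fits and leaving out libraries that stood apart. Promoter sequences are RefSeq's (GRCm38.p6), and Serpina3k and Serpina3m had no entry.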

Additional observations from a re-analysis of the deposited data

Results flagged for a closer look

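Among 83 sets of a member in a group with a library of at least 1 CPM, 11 held 1 library far from the others. The nominal rate of the rule used is about 1 in 20, and the rate by chance in these data was not measured. Serpina3a stood at 1.62 CPM and Serpina3g at 7.58 CPM in GFP epididymal library 8. Serpina3b (1.13 CPM) and Serpina3j (1.6 CPM) stood apart in KO chow subcutaneous library 5. Serpina3f (0.319 CPM) and Serpina3g (1.02 CPM) were far below the rest in WT chow subcutaneous library 1. In mInhbe epididymal library 9 Serpina3f was at 2.48 CPM and Serpina3m at 27.7 CPM, and in mInhbe subcutaneous library 2 Serpina3k was at 13.1 CPM and Serpina3n at 606 CPM. Serpina3c was at 180 CPM in KO HFD epididymal library 4.

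Effects that differed between groups by edgeR's test of the difference numbered 9. Genotype changed the response to diet for Serpina3c in subcutaneous fat (-0.74) and for Serpina3m in epididymal fat (-1.48). The vector's effect on Serpina3c differed between depots by 0.56, a description only, since the epididymal vector values chose the members. The effect of KO on HFD differed between depots for Serpina3c (0.96) and Serpina3k (-5.61). The effect of HFD in WT differed between depots for Serpina3c (-1.51) and Serpina3g (1.55). For Serpina3b (-4.36) and Serpina3f (1.80) the difference is a description only. The subcutaneous WT libraries of Serpina3b held 15 counts on chow and 22 on HFD in all, so it passed the filter through epididymal groups. Single WT chow epididymal libraries of Serpina3f held 4 to 19 counts, and it passed through other groups.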

How the results depend on the processing

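Of 199 alternative counts of called members 164 stayed within 1.5 times, and of 510 alternative fold changes 460 kept their call, 41 kept only the direction and 9, all of Serpina3k, reversed. The tallies include the epididymal vector comparison and the vector by depot difference. Both use values that chose the members, so nothing is read from that part. The tallies also hold calls of Serpina3b, Serpina3f and Serpina3j where those genes passed the filter through other groups. For mInhbe in subcutaneous fat the count went from 0 to 2 with DESeq2 and with no filter (Serpina3a, Serpina3b), to 1 without 3 GFP libraries (2 of subcutaneous, 7 and 8 of epididymal fat), and to 1 without mInhbe subcutaneous library 2. For HFD in KO subcutaneous fat it went from 0 to 2 (DESeq2), 1 (no filter) and 1 (2-group fit), and for KO on chow in epididymal fat from 0 to 1 with voom and the 2-group fit (Serpina3c). The subcutaneous genotype by diet count went from 1 to 2 (DESeq2), 4 (voom), 2 without the liver-rich libraries (6 of WT HFD, 2 of KO HFD), 2 without WT chow library 1, and 0 without the 4 libraries poor in lymph node transcript, and the epididymal one from 1 to 2 (voom). HFD in WT subcutaneous fat went from 3 to 5 (voom, no filter) and to 1 (lymph node score, without those 4 libraries). KO on HFD in epididymal fat went from 3 to 5 (DESeq2) and to 1 (liver score, without WT HFD libraries 4 and 5). The vector by depot count went from 1 to 0 without the GFP libraries and to 2 without mInhbe subcutaneous library 2, and KO on HFD by depot from 2 to 1 with DESeq2, the liver score, and without either set of WT libraries. Depot counts went from 5 to 2 (voom) and 3 (2-group fit) in WT HFD, from 5 to 3 in WT chow and from 2 to 1 in KO HFD (2-group fits). Where samples or genes were not removed, the cause was not tested.

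Serpina3k reversed for HFD in WT epididymal fat with voom (-0.43), the liver score (-2.97) and without libraries 4 and 5 (-2.94). For KO on HFD it reversed to 1.38 and 1.77 with the last 2 settings, for depot in WT HFD to -0.04 and -2.0, and for KO on HFD by depot to 0.43 and 0.94. Alb, a part of the liver score, also differed with genotype, so fits with that score do not set liver tissue apart from genotype.

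Replicate numbers were not used as pairs in the main fits: in none of 34 pairs of groups did every pair of libraries correlate over 0.1. Weak correlation cannot show whether equal numbers mark the same animal in both depots. With the replicate block the vector by depot count went from 1 to 0, KO on HFD by depot from 2 to 1 and depot in WT HFD from 5 to 3. Serpina3c for the vector in epididymal fat was then at 0.66, a description only. Serpina3m for HFD in WT subcutaneous fat was at 0.76 (adjusted p = 0.0774). Serpina3f for depot in KO HFD was called lower (-0.84, adjusted p = 0.0355); in that arm 7 of 8 numbered pairs correlated over 0.1 and 5 correlated best with their own number, a hint from the data and not the design.

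Counts over all genes moved by over 1.5 times as follows. The vector's went from 3801 to 5786 (voom) and 347 (lymph node score) in subcutaneous fat, and from 173 to 334 (DESeq2), 338 (voom) and 76 (block) in epididymal fat. KO on chow went from 36 to between 23 and 272 in subcutaneous fat and from 99 to 205 (DESeq2), 257 (voom) and 162 (2-group fit) in epididymal fat. KO on HFD in subcutaneous fat went from 2688 to 5552 (voom), HFD in WT from 6276 to 3867 (2-group fit) and HFD in KO from 2948 to 6836 (voom) and 6463 (2-group fit). The genotype by diet counts went from 304 to 559 (DESeq2) and 2500 (voom) in subcutaneous and from 2487 to 3945 (voom) in epididymal fat. The vector by depot count went from 2081 to 4707 (voom), 4 (block) and 877 (without the GFP libraries), KO on chow by depot from 0 to 30 (DESeq2) and 1 (voom), KO on HFD by depot from 2264 to 3850 (voom), and depot in WT HFD from 6312 to 3646 (2-group fit). Depth limits Serpina3a, Serpina3b and Serpina3j most, since many of their libraries hold fewer than 3 counts.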
